A study of Rattus norvegicus with 5 samples.

Results

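The genes described here are 60 components of Wnt and R-spondin signalling in rat thyroid cells, from the secreted ligands and their receptors to the cytoplasmic relay, the nuclear factors, the feedback targets and the secreted antagonists. They were found by matching the RefSeq accession of each array probe to its rat gene symbol. Of the 60, 49 had a matched probe, among 15154 genes with one on the array. Not matched, and so not analysed here, were Wnt2, Wnt3a, Fzd7, Lgr6, Znrf3, Dvl2, Tcf7, Tcf7l2, Nkd1, Sfrp1 and Wif1.

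FRT cells are an established epithelial line from the thyroid of the Fischer rat. They were grown either as confluent 2D monolayers or embedded in Matrigel, a reconstituted basement membrane gel, where they form 3D follicle-like structures, and total RNA was taken on day 5. On each of 4 two-colour arrays, 1 of 4 biological replicates of the 3D culture, in Cy5, was set against a single pool of 4 monolayer cultures, in Cy3. The fifth array compared this 2D pool, now labelled with Cy5, with pooled 3D material labelled with Cy3, and is called the swapped array. All cells belong to the same unmodified line, and the groups differ in the culture format, so that the gel and the shape of the culture cannot be told apart. Because the 2D cultures were pooled, the spread among them is not in the data, and p-values measure only the spread between the 5 arrays, of which the swapped one holds pools of the same cultures. The number of arrays limits the precision.

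The log2 ratios correlated with r of 0.871 to 0.946 between replicate arrays and of 0.734 to 0.765 between each of these and the swapped array. The share of probes marked as well above background ranged from 45% to 50.9% over arrays and conditions. A dye effect passed for 1.9% of all genes (288) and for 0 of the 49 measured members. The markers of the line were mixed. All 8 epithelial markers examined, among them Cdh1, Epcam and Cdh16, were above background in both conditions, as were 5 of 11 thyroid follicular markers including the transcription factor Pax8, but Nkx2-1, Tg, Tshr and Slc5a5, which define a differentiated thyrocyte, were not above background on any array. Pax8 had log2 ratios of 0.65 to 1.02 over the 4 replicates but 0.05 with the dyes swapped, with a dye effect that passed, and its fitted value was 0.71 without and 0.46 with a term for the dye. Markers that other cells would carry were above background in at least 1 condition for 4 of 8 genes of fibroblasts, 4 of 8 of leukocytes, 2 of 5 of C cells and 1 of 6 of endothelium, and 1 fibroblast marker was called higher and 1 leukocyte marker lower in 3D. Their part in the results below was not tested.

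Wnt proteins are secreted lipid-modified glycoproteins that bind Frizzled receptors together with the co-receptors LRP5 and LRP6. In the canonical branch this stops the Axin, APC and GSK3 complex from marking β-catenin for destruction, and β-catenin then enters the nucleus and activates target genes with TCF and LEF factors. R-spondins act through LGR4, LGR5 and LGR6 to hold back RNF43 and ZNRF3, ubiquitin ligases that remove Frizzled receptors from the cell surface, and several components, such as Axin2, Rnf43 and Notum, are themselves induced by the pathway and damp it.

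The promoter windows of 4 genes that recur in the results are shown first, as a description only. As processed here, Lgr4 and Wnt4 had the largest rises among the Wnt genes and Wnt7a the largest fall. Axin2 is the textbook feedback target, and its probe stayed at background. Each window runs from 250 bases before to 50 bases after the annotated start of the gene, as given by RefSeq on assembly GRCr8, and is written 5′ to 3′ on the strand of the gene. Capitals mark the core words read by TCF and LEF factors, searched on both strands as the word AACAAAG, the word ATCAAAG, the word TACAAAG and the word TTCAAAG.
Lgr4, chr3:116901718-116902017, plus strand: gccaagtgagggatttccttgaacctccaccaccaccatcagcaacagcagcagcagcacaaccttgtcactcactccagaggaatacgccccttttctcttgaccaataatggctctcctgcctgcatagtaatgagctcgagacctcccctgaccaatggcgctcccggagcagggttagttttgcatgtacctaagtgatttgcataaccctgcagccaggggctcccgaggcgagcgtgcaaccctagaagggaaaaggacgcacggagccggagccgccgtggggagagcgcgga
Wnt4, chr5:154797200-154797499, plus strand: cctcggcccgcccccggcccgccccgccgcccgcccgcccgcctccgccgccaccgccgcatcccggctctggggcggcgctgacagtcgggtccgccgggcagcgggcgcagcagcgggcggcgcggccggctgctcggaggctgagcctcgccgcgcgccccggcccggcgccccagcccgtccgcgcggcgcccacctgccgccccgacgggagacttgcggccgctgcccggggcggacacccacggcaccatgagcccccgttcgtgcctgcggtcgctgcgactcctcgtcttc
Wnt7a, chr4:125466100-125466399, minus strand: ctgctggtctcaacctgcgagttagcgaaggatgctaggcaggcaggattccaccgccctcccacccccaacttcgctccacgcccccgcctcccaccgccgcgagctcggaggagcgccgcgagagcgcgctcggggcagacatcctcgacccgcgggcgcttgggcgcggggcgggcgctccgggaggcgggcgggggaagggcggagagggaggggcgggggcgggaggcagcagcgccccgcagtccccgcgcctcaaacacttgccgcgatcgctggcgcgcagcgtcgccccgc
Axin2, chr10:94398535-94398834, plus strand: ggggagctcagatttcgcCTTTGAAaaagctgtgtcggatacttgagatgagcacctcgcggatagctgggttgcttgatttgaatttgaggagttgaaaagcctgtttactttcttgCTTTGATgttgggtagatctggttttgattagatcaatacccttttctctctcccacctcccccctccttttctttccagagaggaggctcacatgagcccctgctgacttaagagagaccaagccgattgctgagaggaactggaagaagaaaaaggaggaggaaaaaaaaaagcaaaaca

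The windows of Lgr4, Wnt4 and Wnt7a held none of the 4 words. The window of Axin2 held CTTTGAA, which is TTCAAAG on the other strand, starting 232 bases before the start of the gene, and CTTTGAT, which is ATCAAAG on the other strand, starting 132 bases before it. Any of the words was found in 5719 of 33469 rat promoter windows of the same length (17.1%). Among the 34 measured Wnt genes with a window, 3 held one (8.82%), namely Axin2, Dkk1 and Wnt3. The first share counts windows and the second counts genes. A match is a description of letters, and its absence from such a short window says nothing about binding elsewhere.

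The comparison asked which Wnt genes differ in RNA level between follicle-like structures and monolayers. Ratios are log2 values of 3D over 2D, so that a value of 1 is a doubling in 3D, and a gene passed when its Benjamini-Hochberg adjusted p in limma, over all 15154 genes, was below 0.01. Of the 49 measured Wnt genes, 6 rose in 3D, namely Lgr4, Wnt4, Fzd1, Lrp5, Wnt5b and Fzd3, and 3 fell, namely Wnt7a, Porcn and Wnt7b, while 40 did not pass. These 9 calls are 18.4% of the measured members, against 25.9% of all genes called in either direction, 14.4% called higher and 11.4% called lower. The median log2 ratio was 0.02 over the 49 members and 0.003 over all genes. All 9 genes kept their direction under each of the 14 alternatives tried, but with median centring of each array in place of loess 0 Wnt genes and 7 of all genes passed.

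Much of the list was dim. A gene was counted as above background in a condition when at least 0.5 of the spots of a probe were marked so by the scanner software on at least 1 array. By this measure 22 members were above background in both conditions, Lrp5 and Rnf43 in 3D only, Wnt9b in 2D only, and 24 in neither. All 9 genes that passed were among the 25 above background, and 16 of the 25 did not pass. Among all 9015 genes above background in a condition, 43.4% were called, 24.2% higher and 19.2% lower. A normexp offset of 50, which steadies the ratios of dim spots, also pulls them towards 0, so that the ratio of a gene near background understates its change. With an offset of 0, Wnt7a was at -2.20, Wnt4 at 1.90, Lrp5 at 1.89, Fzd1 at 1.51 and Wnt5b at 0.58, and these still passed, whereas Fzd3 at 0.53 did not (adjusted p = 0.0113 in limma).

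**Figure D1:**
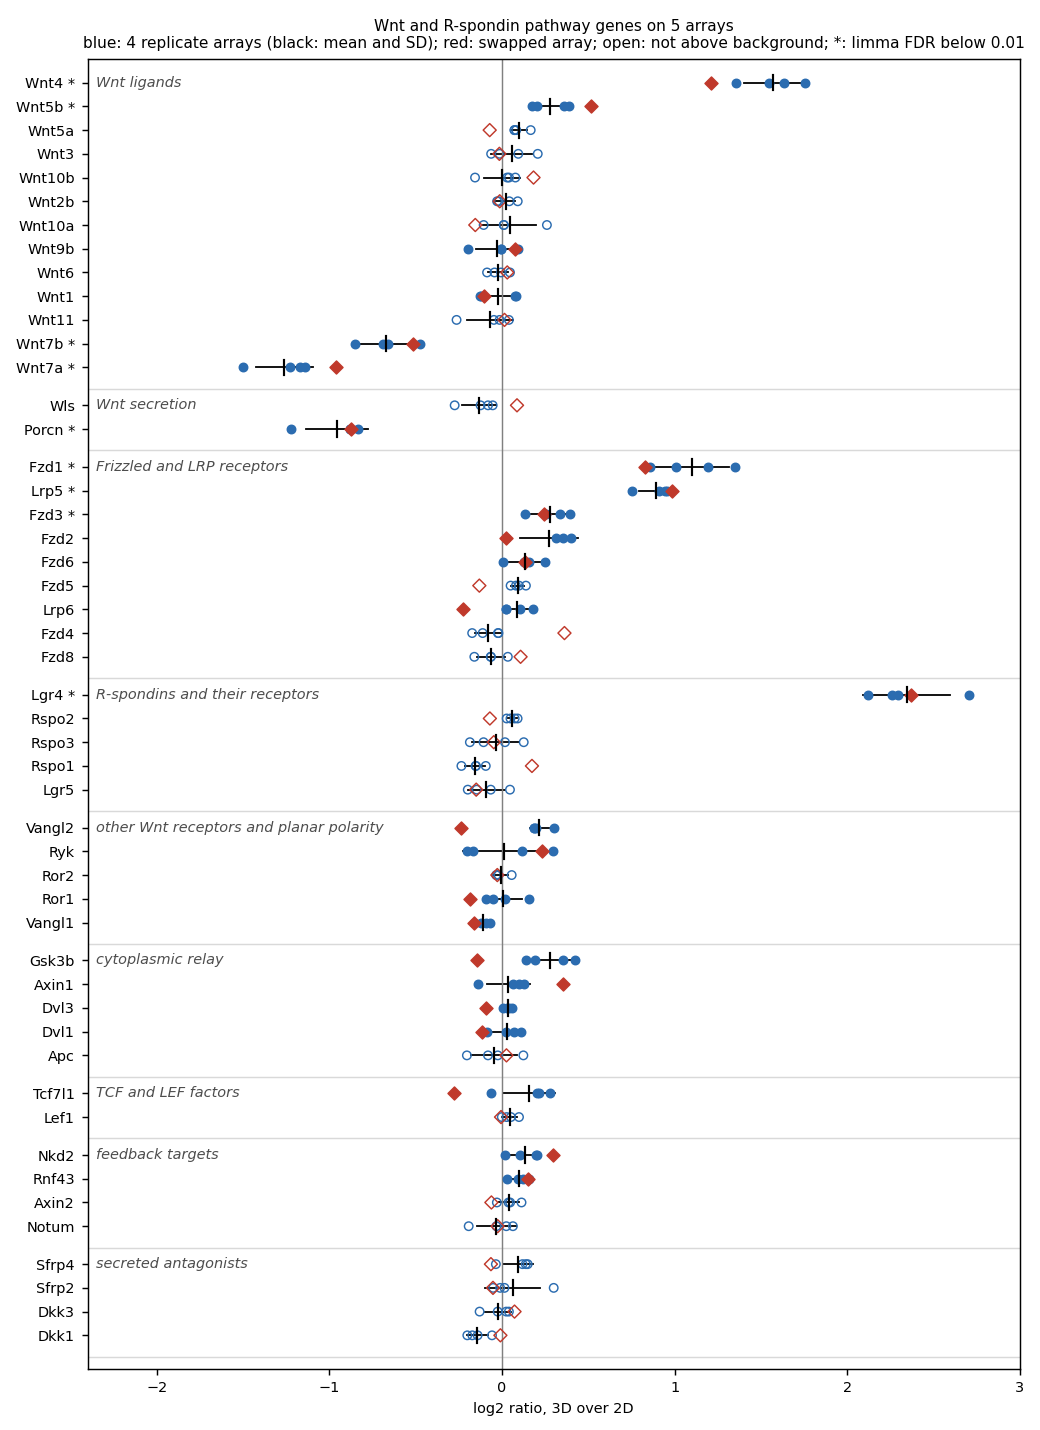
Log2 ratio of 3D over 2D (horizontal axis) of each of the 49 measured Wnt genes (vertical axis, grouped by role). Circles are the 4 replicate arrays with their mean and SD in black, diamonds the swapped array, open symbols genes not above background in either condition, and asterisks the 9 genes that passed in limma. Lgr4, Wnt4, Fzd1 and Lrp5 lie to the right of 0 and Wnt7a, Porcn and Wnt7b to the left on every array, and most other genes straddle 0.

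Of the 13 Wnt ligands measured, 2 rose, 2 fell and 9 did not pass. Wnt4, a ligand best known for its part in the formation of kidney tubules and of the female reproductive tract, had log2 ratios of 1.35, 1.75, 1.55 and 1.63 on replicate arrays 1 to 4, and 1.21 on the swapped array. All 5 arrays showed more Wnt4 RNA in 3D, with the swapped array lowest. The mean of the replicate arrays was 1.57 ± 0.17 (SD, n = 4), and the limma estimate over the 5 arrays was 1.50 ± 0.07 (SE), or 2.83-fold, with an adjusted p of 4.92e-07. The normalized log2 signal of the Wnt4 probe was 7.48 in 2D and 8.98 in 3D, above background on all 5 arrays in both conditions.

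Wnt5b, which in vertebrates acts mainly through branches that do not use β-catenin, had log2 ratios of 0.36, 0.39, 0.17 and 0.20 on the replicate arrays, with 0.51 on the swapped array. It was higher in 3D on every array, but by little, and the fitted value was 0.33 ± 0.06 (SE), 1.25-fold, with an adjusted p of 0.00123 in limma. The 4 replicate arrays averaged 0.28 ± 0.11 (SD, n = 4).

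Wnt7a and Wnt7b, a pair of closely related ligands known from epithelia and from the vasculature of the brain, both fell. Wnt7a had log2 ratios of -1.50, -1.14, -1.23 and -1.17 on the replicate arrays, with -0.96 on the swapped array. Every array showed less Wnt7a RNA in 3D, with replicate 1 farthest from 0. The replicate arrays averaged -1.26 ± 0.16 (SD, n = 4). The fitted value was -1.20 ± 0.07 (SE), 0.435 of the 2D level as processed here, with an adjusted p of 1.2e-06 in limma. With an offset of 0 Wnt7a was at -2.20, and with the ratios of the scanner software at -2.92. Its log2 signal was 7.46 in 2D and 6.26 in 3D, and it was above background on all arrays in both conditions. Wnt7b had log2 ratios of -0.47, -0.66, -0.85 and -0.69 on the replicate arrays, with -0.52 on the swapped array. It was lower in 3D on every array and fell less than Wnt7a on every array, with a fitted value of -0.64 ± 0.06 (SE) and an adjusted p of 2.1e-05 in limma.

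The other 9 ligands gave values close to 0. Wnt1, the founding member of the family, was above background on 2 arrays in 3D and on 1 in 2D, with log2 ratios of -0.12, 0.07, 0.08 and -0.12 on the replicate arrays, with -0.10 on the swapped one. These values lie on both sides of 0, and the adjusted p was 0.616 in limma. Wnt9b was above background on 1 array, in 2D, with a fitted log2 ratio of -0.01. Wnt11, a ligand of the branch without β-catenin, was not above background on any array and had log2 ratios of -0.26, 0.04, -0.05, -0.01 and, on the swapped array, 0.01. Wnt2b, Wnt3, Wnt5a, Wnt6, Wnt10a and Wnt10b were likewise not above background, with fitted values between -0.01 and 0.06. Since these probes were not well above background in either condition, a change could not be read from them.

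Every Wnt protein depends on 2 measured genes for its release. Porcn encodes the membrane acyltransferase that attaches the lipid, and its log2 ratios were -1.22, -0.88, -0.88 and -0.83 on the replicate arrays, with -0.88 on the swapped array. Porcn RNA was lower in 3D on all 5 arrays, and replicate 1 stood apart from the other arrays, which lay within a narrow span. The replicate arrays averaged -0.95 ± 0.18 (SD, n = 4), and the fitted value was -0.94 ± 0.06 (SE), 0.522 of the 2D level, with an adjusted p of 2.39e-06 in limma. Its log2 signal was 11.39 in 2D and 10.45 in 3D, so that it remained well above background in both. Wls, the carrier that takes lipid-modified Wnt proteins to the cell surface, was not above background on any array and had log2 ratios of -0.12, -0.08, -0.27, -0.05 and, on the swapped array, 0.09.

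Of the 9 Frizzled and LRP receptors measured, 3 rose, none fell and 6 did not pass. 5 of the 9 had an unadjusted p below 0.05 in limma, all with higher values in 3D, where 40.3% of all genes and 63.8% of genes above background had one, and the median log2 ratio of the group was 0.13. Fzd1, a seven-pass Wnt receptor, had log2 ratios of 1.19, 1.35, 1.01 and 0.86 on the replicate arrays, with 0.83 on the swapped array. It was higher in 3D on all 5 arrays, with the replicate arrays averaging 1.10 ± 0.21 (SD, n = 4) and a fitted value of 1.05 ± 0.08 (SE), 2.07-fold, at an adjusted p of 5.07e-06 in limma. Its log2 signal was 7.09 in 2D and 8.13 in 3D.

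Lrp5, a co-receptor of canonical signalling, had log2 ratios of 0.75, 0.91, 0.96 and 0.94 on the replicate arrays, with 0.98 on the swapped array. The arrays lay close together and all above 0. Its probe was above background on all 5 arrays in 3D and on none in 2D, so that the 2D side is only a limit. The fitted value was 0.91 ± 0.05 (SE), 1.88-fold, with an adjusted p of 5.6e-07 in limma. The bound against the 2D side was the same 1.88-fold by construction. On every array the 2D signal of the probe itself was at or above the lowest signal above background. The bound is therefore the fitted value again and not a second measurement. With an offset of 0 the log2 ratio was 1.89. The bound leaves out the spread between arrays, and replicate 1 lay below it, so it is an estimate and not a firm minimum. The other co-receptor of the same kind, Lrp6, was above background on all arrays in both conditions and had log2 ratios of 0.03, 0.18, 0.02 and 0.11 on the replicate arrays, with -0.23 on the swapped one. Its fitted value of 0.02 ± 0.06 (SE) did not pass, with an adjusted p of 0.824 in limma. The ratio of Lrp5 was above that of Lrp6 on every array. Fzd3, a Frizzled best known from axon guidance and planar polarity, rose by a small amount, with log2 ratios of 0.33, 0.14, 0.25 and 0.39 on the replicate arrays, with 0.24 on the swapped array. All were above 0, and the fitted value was 0.27 ± 0.05 (SE), with an adjusted p of 0.00133 in limma.

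Some receptors lay near the threshold. Fzd6, another planar polarity receptor, was read by a pair of probes: the brighter one gave log2 ratios of 0.16, 0.25, 0.00, 0.13 and, on the swapped array, 0.14, with an adjusted p of 0.0446 in limma. The dimmer one gave 0.36, 0.42, 0.27, 0.41 and, on the swapped array, 0.10. With the mean of both probes in place of the brighter, Fzd6 had a log2 ratio of 0.22 and passed, with an adjusted p of 0.00311, so that its call depends on the probe. Fzd2 had log2 ratios of 0.32, 0.02, 0.35 and 0.40 on the replicate arrays, with 0.02 on the swapped array. Replicate 2 and the swapped array were near 0 and the other 3 well above, and the fitted value of 0.22 ± 0.07 (SE) did not pass (adjusted p = 0.0263 in limma). Fzd4, Fzd5 and Fzd8 were not above background, with fitted log2 ratios of 0.01, 0.05 and -0.03.

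The largest change in the pathway, as processed here, was that of Lgr4, a seven-pass receptor for R-spondins. Its log2 ratios were 2.12, 2.71, 2.29 and 2.26 on the replicate arrays, with 2.37 on the swapped array. No array fell below 2, and the swapped array lay within the range of the replicate arrays. The replicate arrays averaged 2.35 ± 0.25 (SD, n = 4), and the fitted value was 2.35 ± 0.07 (SE), 5.10-fold, with an adjusted p of 5.39e-08 in limma. The log2 signal of its probe was 8.95 in 2D and 11.30 in 3D. Lgr4 RNA was therefore well measured in monolayers too and was not gained from background. The order of the genes depended on the processing. With the ratios of the scanner software, made without the offset, Wnt7a at -2.92 and Lrp5 at 2.78 changed more than Lgr4 at 2.56. Wnt4 was then at 2.03, below Lrp5. With an offset of 0 Lgr4 was at 2.50 and remained the largest.

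The rest of the R-spondin group was at background. Lgr5, a paralogous receptor and marker of intestinal stem cells, had log2 ratios of 0.05, -0.06, -0.15, -0.20 and, on the swapped array, -0.15, and was not above background on any array. Rspo1, one of the R-spondin ligands, gave -0.15, -0.09, -0.23, -0.15 and, on the swapped array, 0.17, also without rising above background. The swapped array had the opposite sign from the others, and without it Rspo1 passed at -0.16, with an adjusted p of 0.00937 in limma. Rspo2 and Rspo3 had fitted values of 0.03 and -0.04 and were not above background either. No measured R-spondin was thus above background on this array, in 2D or in 3D.

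**Figure D2:**
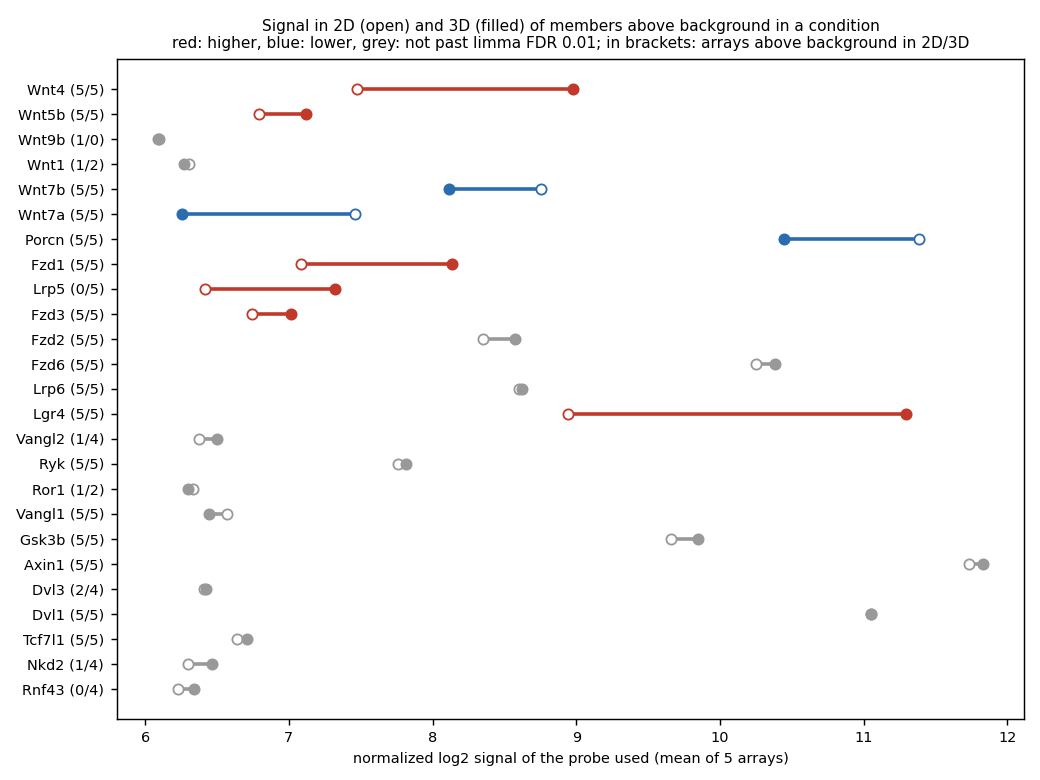
Normalized log2 signal (horizontal axis, mean of 5 arrays) in 2D (open circles) and 3D (filled circles) of the 25 Wnt genes above background in at least 1 condition (vertical axis, with the arrays above background in 2D and 3D in brackets). Lgr4 runs from 8.95 to 11.30 and Porcn from 11.39 to 10.45, and for most genes in grey, which did not pass, the 2 circles nearly coincide. Signals of different probes are not comparable with each other.

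Of the 5 cytoplasmic relay genes measured, none passed. 1 had an unadjusted p below 0.05 in limma, namely Gsk3b, which encodes the kinase of the destruction complex. Its log2 ratios were 0.42, 0.35, 0.19 and 0.14 on the replicate arrays, with -0.15 on the swapped array. The 4 replicate arrays were above 0 and the swapped one below, and the fitted value of 0.19 ± 0.08 (SE) had an adjusted p of 0.0831, whereas without the swapped array it was 0.28 with an adjusted p of 0.00217. Axin1, the scaffold of the destruction complex, had log2 ratios of -0.14, 0.10, 0.13, 0.06 and, on the swapped array, 0.36. Dvl1, a Dishevelled protein that joins Frizzled to Axin, had -0.09, 0.02, 0.07, 0.11 and, on the swapped array, -0.12. Both were above background on every array and gave values on both sides of 0, with adjusted p of 0.287 and 0.997 in limma. Dvl3 had a fitted value of 0.01, and Apc, which was not above background, of -0.03.

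Neither of the 2 TCF and LEF factors measured passed, and neither had an unadjusted p below 0.05 in limma. Tcf7l1, which in the absence of β-catenin mostly represses its targets, was above background on all arrays and had log2 ratios of 0.21, 0.28, 0.20, -0.06 and, on the swapped array, -0.28. The values spanned 0, with an adjusted p of 0.567. Lef1 was not above background on any array and had log2 ratios of -0.00, 0.03, 0.05, 0.10 and, on the swapped array, -0.01.

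None of the 4 feedback targets measured passed. 2 of the 4, Nkd2 and Rnf43, had an unadjusted p below 0.05 in limma, both with higher values in 3D. Both were above background, and 40.3% of all genes and 63.8% of genes above background had such a p. The median log2 ratio of all 4 feedback targets was 0.12, 0.07, 0.04 and 0.03 on the replicate arrays, with 0.06 on the swapped array. Over all arrays the median was 0.07 for the feedback targets, 0.004 for the ligands and 0.13 for the Frizzled and LRP receptors. These medians include genes not above background, whose ratios are pulled towards 0. Over the 2 feedback targets, 6 ligands and 6 receptors above background, the medians were 0.14, -0.02 and 0.25. As processed here, the ratios of Lgr4 and Wnt4 lay far above all of these medians. The 2 feedback targets were themselves near background, where the offset also pulls ratios towards 0. With an offset of 0, Rnf43 was at 0.38 and Nkd2 at 0.50, against 2.50 for Lgr4 and 1.90 for Wnt4. With the ratios of the scanner software, Rnf43 was at 1.58 and Nkd2 at 1.00, against 2.56 for Lgr4 and 2.03 for Wnt4. Axin2 had log2 ratios of 0.11, 0.05, -0.03 and 0.04 on the replicate arrays, with -0.06 on the swapped array, and its probe was not above background on any array in either condition. Its fitted value was 0.02 ± 0.04 (SE), with an adjusted p of 0.757 in limma, and the log2 signal was 5.91 in 2D and 5.93 in 3D. Notum, a secreted enzyme that removes the lipid from Wnt proteins, had log2 ratios of -0.03, -0.19, 0.06 and 0.03 on the replicate arrays, with -0.02 on the swapped array, and was at background as well. A change of Axin2 or Notum below the range of the array was therefore not detectable.

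The other feedback genes were just above background. Rnf43, the ubiquitin ligase that R-spondins and LGR receptors hold back, had log2 ratios of 0.12, 0.16, 0.09 and 0.03 on the replicate arrays, with 0.15 on the swapped array. All were above 0 and small, and the probe was above background on 4 arrays in 3D and on none in 2D. The difference did not pass (adjusted p = 0.0607 in limma). Nkd2, an inhibitor that binds Dishevelled, had log2 ratios of 0.20, 0.10, 0.02 and 0.20 on the replicate arrays, with 0.30 on the swapped array, and was above background on 4 arrays in 3D and on 1 in 2D. Its fitted value of 0.16 ± 0.05 (SE) did not pass, with an adjusted p of 0.0259. A second, dimmer Nkd2 probe gave 0.07, -0.04, -0.07, -0.10 and, on the swapped array, 0.14.

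For these dim genes the value moved with the processing. The ratios of the scanner software, made with its own background subtraction and without the offset, put Rnf43 at 1.58 with an adjusted p of 0.00671 and Nkd2 at 1.00 with an adjusted p of 0.0278 in limma. With a normexp offset of 0 the values were 0.38 and 0.50, with adjusted p of 0.0193 and 0.0372. Nkd2 passed in 1 of 14 alternatives, the fit with a term for the dye, where it was 0.21 with an adjusted p of 0.00753. Axin2 stayed between -0.20 and 0.05 and passed in none of the 13 alternatives in which it was tested.

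**Figure D3:**
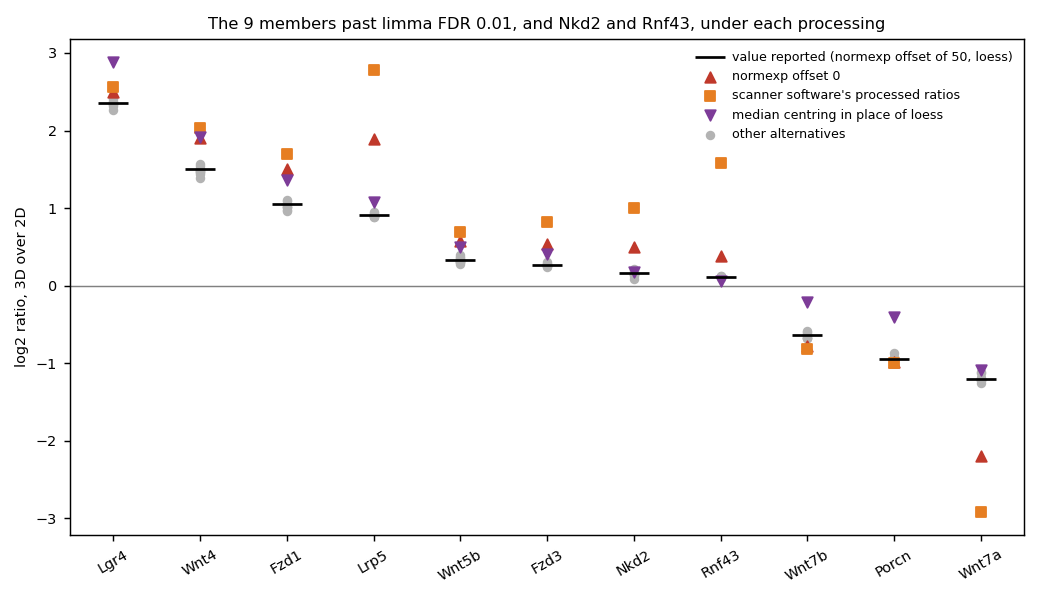
Log2 ratio of 3D over 2D (vertical axis) of the 9 Wnt genes that passed and of Nkd2 and Rnf43 (horizontal axis), as reported (black bars) and under each other way of processing the arrays (symbols). Lgr4 stays above 2 throughout, whereas with an offset of 0 Lrp5 moves from 0.91 to 1.89 and Wnt7a from -1.20 to -2.20, and Rnf43 reaches 1.58 with the ratios of the scanner software.

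None of the 4 secreted antagonists measured was above background in either condition, and none passed. Dkk1, which blocks LRP5 and LRP6, had log2 ratios of -0.06, -0.17, -0.14, -0.20 and, on the swapped array, -0.01. All were slightly below 0, with an adjusted p of 0.0719 and an unadjusted p of 0.0258 in limma. A second, dimmer Dkk1 probe gave values on both sides of 0, with 0.11, -0.01, 0.11, -0.04 and, on the swapped array, -0.07. Dkk3, a divergent relative, had -0.02, -0.13, 0.04, 0.02 and, on the swapped array, 0.07, and the secreted Frizzled-related proteins Sfrp2 and Sfrp4 had fitted values of 0.04 and 0.06.

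Of the 5 other Wnt receptors and planar polarity genes, none passed. Ryk, a receptor-like protein with a Wnt-binding domain, was above background on all arrays and had log2 ratios of 0.29, 0.12, -0.20, -0.17 and, on the swapped array, 0.23. The replicate arrays thus split around 0, with an adjusted p of 0.659 in limma. Vangl1, a four-pass membrane protein of planar polarity, had -0.09, -0.16, -0.07, -0.12 and, on the swapped array, -0.16, all below 0, with an adjusted p of 0.0363. Vangl2, its paralogue, had log2 ratios of 0.18, 0.30, 0.20 and 0.19 on the replicate arrays, with -0.24 on the swapped array. The swapped array again went the other way, and without it Vangl2 was at 0.22 and would have passed, with an adjusted p of 0.00153. Ror1 and Ror2, receptor tyrosine kinases for Wnt5a, had fitted values of -0.03 and -0.01, Ror2 without rising above background.

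Wider lists of pathway genes were described in the same way, and their members were chosen by function. Of 16 measured genes for β-catenin and its destruction complex, 5 were higher and 2 lower in 3D (43.8%). Of these 16 genes, 14 were above background, and the share called was close to the 43.4% of all genes above background. Csnk1d, a casein kinase 1 that phosphorylates several components, had log2 ratios of 0.79, 0.94, 0.93, 0.95 and, on the swapped array, 0.32, and Amer1, a scaffold of the complex, had 0.48, 0.47, 0.54, 0.35 and 0.02. In both the swapped array was lowest. For Csnk1d a dye effect passed, and its fitted value was 0.79 without and 0.61 with a term for the dye. These values come from the brighter of 2 Csnk1d probes. Over the 14 alternatives, which include the mean of all probes, Csnk1d lay between 0.36 and 1.25. Amer1 passed in 7 of 14 alternatives and in none that left out a replicate array. Csnk1e, another casein kinase 1, had -0.33, -0.17, -0.14, -0.22 and -0.25, a fall that turned to 0.16 with median centring and passed in 9 of 14 alternatives. Apc2, a relative of Apc, had -0.25, -0.17, -0.09, -0.16 and -0.42, and the probe used was above background on 2 arrays in 2D and on none in 3D. It passed in 6 of 14 alternatives and in none that left out a replicate array. Ctnnb1, the gene of β-catenin itself, was singled out after its values were seen, and was slightly higher with 0.39, 0.13, 0.33, 0.26 and, on the swapped array, 0.30 (fitted 0.28, adjusted p = 0.00112 in limma).

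Of 16 nuclear cofactors measured, 7 were higher and 1 lower (50%). Of these 16 genes, 15 were above background, against 43.4% called among all genes above background. Tle2, a Groucho-type co-repressor, had the largest value of this list, with log2 ratios of 1.10, 1.16, 1.24, 1.17 and, on the swapped array, 1.31. These 5 arrays lay close together. Ctbp2, another co-repressor, had 0.74, 0.76, 0.63, 0.62 and, on the swapped array, 0.19, while Ctnnbip1, which keeps β-catenin from TCF factors, had -0.13, -0.32, -0.23, -0.28 and -0.14, which turned to 0.27 with median centring and passed in 8 of 14 alternatives. The median log2 ratio was 0.16 over the 16 genes and 0.17 over the 15 above background, against 0.03 over all genes above background. By array, the median of the 16 genes was 0.24, 0.20, 0.26 and 0.23 on the replicate arrays. On the swapped array it was -0.01, where the median of all genes above background was -0.007, so that the swapped array did not share the shift.

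Of 24 further genes known as transcriptional targets in other tissues, 5 were higher and 1 lower (25%, with 15 above background), close to the 25.9% of all genes. Id2, an inhibitor of basic helix-loop-helix factors that many pathways induce, had log2 ratios of 2.24, 2.46, 2.30, 2.34 and, on the swapped array, 1.88, all far above 0. Cdx2, an intestinal homeobox factor, had 0.56, 0.49, 0.72, 0.92 and 0.76, and Plaur, the urokinase receptor, had -0.44, -0.35, -0.40, -0.45 and -0.26, which turned to 0.0327 with median centring. The median of this list was 0.01.

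Among 20 genes of planar polarity and of signalling without β-catenin, 2 were higher and 2 lower (20%, with 17 above background, where 43.4% of all genes above background were called). Daam1, a formin that binds Dishevelled, had log2 ratios of -0.53, -0.61, -0.54, -0.51 and, on the swapped array, -0.81, all below 0. Rac1, a small GTPase of the actin cytoskeleton, had -0.15, -0.17, -0.21, -0.23 and -0.20, which turned to 0.31 with median centring and passed in 9 of 14 alternatives. Fuz, a planar polarity effector needed for cilia, had 0.41, 0.28, 0.41, 0.34 and 0.18, and Nlk, a kinase that acts on TCF factors, had 0.62, 0.38, 0.49, 0.30 and -0.01. For Nlk the swapped array did not share the rise of the other 4, and Nlk passed in 5 of 14 alternatives.

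The remaining lists gave few calls, and few of their genes were above background. These were 1 of the 5 further receptors and co-receptors, 3 of the 10 further antagonists and 0 of the 5 further ligands and R-spondins. Among all genes 25.9% were called, and among those above background 43.4%. Of 5 further receptors and co-receptors, 1 rose, Kremen1, which removes LRP6 from the surface together with Dkk proteins, with log2 ratios of 0.16, 0.26, 0.16, 0.28 and 0.38 with the dyes swapped, and it kept its call in 11 of 14 alternatives. Of 10 further antagonists, 1 rose, Tpbg, a membrane protein that restrains LRP6, with 0.27, 0.56, 0.43, 0.36 and 0.28. Both were above 0 on all arrays. Of 5 further ligands and R-spondins, none passed, none had an unadjusted p below 0.05 in limma and none was above background. The brightest of them, Wnt8a and Wnt9a, had fitted values of -0.04 and 0.02.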

How the data were processed

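Total RNA of day 5 cultures was hybridised to 5 Agilent two-colour rat arrays. The deposited intensities are the median pixel of each spot and of its surroundings, as Agilent Feature Extraction 10.7.3.1 gave them per the file headers, without normalization. The deposited log10 ratios are those of the scanner software, Cy5 over Cy3, after its own background subtraction and dye normalization. The value table of the authors holds log2 ratios, made per the methods with limma by normexp, loess and quantiles. On all 5 arrays it runs 3D over 2D (r of 0.995 to 0.998 with the ratios used here, medians of -0.0064 to 0.0011), and its scale, centring and direction were taken from this comparison.

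The median signals were processed with limma 3.58.1 under R 4.3.3: normexp background correction with an offset of 50, loess within arrays with control spots at weight 0, and quantiles of the average intensities. Spots marked as outliers (1.12% to 1.6% per array) were left out, and 0 were saturated. Spots of a probe were averaged, and each gene took the value of its brightest probe. Of 30367 probes, 17998 (59.3%) matched a RefSeq symbol (assembly GRCr8), for 15154 genes, of which 2605 had several probes. 3 genes lacked a value on 1 array or more. Ratios were turned to 3D over 2D and fitted with 1 coefficient over the 5 arrays, the prior having 5.13 degrees of freedom, with Benjamini-Hochberg adjustment over all genes at an FDR of 0.01. Over the 4 replicate arrays alone, an exact two-sided sign test could not go below p = 0.125. The fit was tested on simulated data. A bound against a condition without signal above background compares the brighter mean with, per array, the higher of the lowest signal above background and that of the probe itself.

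The Wnt genes and all lists were chosen with earlier results of these data known. Values of every array are given for the members that passed, moved alike on all 5 arrays and lay above background, for the 2 brightest that did not pass in each role, and for up to 2 risen and 2 fallen genes of each wider list. Values of other members were chosen for printing after they were seen. Alternatives were an offset of 0, the scanner ratios, median centring, quantiles over all channels, the authors' table, outlier spots kept, the mean of all probes, dim genes left out, a dye term, each array left out, and an FDR of 0.05. The probe sequences and protein sequences were not used here.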

Additional observations from a re-analysis of the deposited data

Results flagged for a closer look

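For each of the 49 Wnt genes, the spread of the 4 replicate arrays was examined for a single array whose gap to its nearest neighbour, divided by the whole range, exceeded Dixon's critical value for 4 samples. Chance gives about 1 such case in 20 groups, and 5 of the 49 genes had one. Of these, 1 passed the test between conditions: Porcn, at -1.22 on replicate 1. Vangl2 stood at 0.301 on replicate 2, above background but not passing. Wnt5a at 0.167 on replicate 2, Sfrp4 at -0.0353 on replicate 4 and Ror2 at 0.0563 on replicate 4 belong to probes that were not above background on any array. Without replicate 1 the fitted log2 ratio of Porcn was -0.87, and it still passed with an adjusted p of 3.3e-06 in limma.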

How the results depend on the processing

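The number of Wnt genes that passed was 9, and lay between 8 and 13 under all alternatives except median centring in place of loess, under which 0 passed. In that setting 7 of all genes passed, of which 100% were higher in 3D against 55.7% with loess, 12713 genes had a dye effect, and the median log2 ratio was -0.16 over the Wnt genes and -0.05 over all genes. Lgr4 was then at 2.88 and Wnt4 at 1.91, with adjusted p of 0.0148 and 0.0251 in limma. With an offset of 0, 2222 of all genes passed in place of 3918, and Fzd3 was the Wnt gene that was lost (0.53, adjusted p = 0.0113), while Lrp5 moved from 0.91 to 1.89 and Wnt7a from -1.20 to -2.20. With the ratios of the scanner software these were at 2.78 and -2.92. Leaving out the swapped array added Fzd2, Gsk3b, Rspo1 and Vangl2, and leaving out any replicate array kept the count at 9 and all genes at 3001 to 3304. The 288 genes with a dye effect, none of them among the 49 Wnt genes, became 0 with an offset of 0, 68 with the scanner ratios, 164 with quantiles over all channels, 149 with the authors' table, and 1 to 440 without 1 of the replicates. Among the wider lists, Csnk1e turned to 0.16 with median centring and 0.0310 with the mean of all probes, and Ctnnbip1, Plaur and Rac1 turned to 0.27, 0.0327 and 0.31 with median centring. At an FDR of 0.05, chosen after seeing the data, 13 Wnt genes (9 higher, 4 lower) and 5095 of all genes (33.6%) passed. The cause of these differences was not tested. Signal over background limits the 24 Wnt genes that were dim in both conditions. No paired analysis was possible because the 2D side of every array was 1 pool.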
